A study of Mus musculus with 6 samples.

Results

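The genes described here are the core of transforming growth factor beta (TGF-beta) signalling as expressed by airway smooth muscle cells. They comprise the ligands Tgfb1, Tgfb2 and Tgfb3, the receptors Tgfbr1, Tgfbr2 and Tgfbr3, the transcription factor Smad3, the inhibitory Smad7, the Smad corepressor Skil and the secreted protein Tgfbi. The 10 genes were chosen by symbol, with earlier results of these data known. All 10 were found among the 17023 genes of the deposited table and passed the filter on low counts, which left 12936 genes. The cells were primary smooth muscle cells from the lungs of wild-type (WT) mice, and their RNA was sequenced after 5 days in transwell plates, which hold cells apart by a porous membrane. In 3 co-culture samples airway epithelial cells shared the plate, and in 3 control samples no epithelial cells were present. Both groups thus shared genotype, tissue source, plate type and culture time, and the sources used here give no age or sex of the mice. The series asked about a proliferation phenotype of smooth muscle. The labels do not say whether replicate samples were independent cultures or animals. P-values therefore measure the spread between these samples only, which may be technical.

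TGF-beta is secreted as a latent complex with its propeptide and is released from it by proteases, integrins and other matrix proteins. Active ligand binds the serine/threonine kinase receptor encoded by Tgfbr2, which phosphorylates the type I receptor encoded by Tgfbr1, and the type I receptor in turn phosphorylates Smad2 and Smad3, which enter the nucleus with Smad4. In airway smooth muscle the pathway is known for raising contractile and matrix genes and for acting on proliferation, and Smad7 and Skil are both targets and inhibitors of it.

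The libraries held between 17496056 and 18496623 estimated counts. Control library 4 stood apart. In a chi-square comparison over genes, divided by its degrees of freedom, the co-culture libraries differed from each other by 3.98 to 6.51 and control library 5 from control library 6 by 3.18, whereas control library 4 differed from those controls by 91.6 and 99.9. Relative to the mean of control libraries 5 and 6, its median log2 level was 0.42 over the shortest and -0.15 over the longest genes, in the first and last of 4 equal length classes. Of the 10 genes described here, 6 were in the longest class and 0 in the shortest, and control library 4 was below the mean of the other controls for 8 of the 10, against 50.8% of all genes. Gene results are therefore given with and without that library. Smooth muscle markers were mixed. Smtn (smoothelin) was at 116 ± 6.27 counts normalised to library size (CPM) in co-cultured cells and 130 ± 17.6 CPM in control cells (mean ± SD, n = 3 each), and Acta2 (smooth muscle actin) at 60.3 ± 16.6 CPM in co-cultured cells and 136 ± 14.4 CPM in control cells. Lmod1, Tagln and Synpo2 lay between 6.42 and 45.5 CPM in every library, whereas Myh11, Cnn1, Des, Actg2 and Myocd did not exceed 1.54 CPM in any library. Fibroblast markers summed to 7291 to 8030 CPM in co-cultured cells and 7951 to 10150 CPM in control cells. Most of each sum was Col1a1 (3503 ± 221 CPM in co-cultured cells and 4433 ± 816 CPM in control cells) and Col3a1 (2727 ± 163 and 3528 ± 445 CPM). The sum thus mainly follows these collagens. Of the other fibroblast markers, Pdgfra, Lum, Dpt, Cd34 and Ly6a had higher means in co-culture, and Dcn, Pi16 and Tcf21 had lower means. Epithelial markers were mixed as well. Epcam did not exceed 0.716 CPM and Krt5 did not exceed 0.110 CPM in any library. Krt18 was at 4.54 ± 0.37 CPM in co-cultured cells and 20.8 ± 4.39 CPM in control cells. Trp63 was at 3.20 ± 0.11 and 0.825 ± 0.186 CPM, and Muc1 at 2.91 ± 0.25 and 1.77 ± 0.32 CPM, in the same order.

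Sequences of the RNA and promoters behind the main findings are shown first. Tgfbr2, which rose in co-culture, is made as transcripts with and without an extra coding exon of 75 bases that lies near the start of the coding region. The exon is at chr9:116158271-116158345 on the minus strand (GRCm38, GENCODE M21), it is exon 2 of NM_009371, and it is absent from NM_029575. NM_009371 has 1776 coding bases in 8 coding exons and NM_029575 has 1701 in 7. Both are shown 5′ to 3′ with 24 bases of the neighbouring exons on either side, and capitals mark the extra exon.
Tgfbr2 NM_009371: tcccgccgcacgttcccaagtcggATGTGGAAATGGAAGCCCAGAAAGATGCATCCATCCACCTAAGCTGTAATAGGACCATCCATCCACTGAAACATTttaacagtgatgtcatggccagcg
Tgfbr2 NM_029575: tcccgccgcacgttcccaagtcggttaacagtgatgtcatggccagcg

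Promoters, here the 250 bases before and 50 bases after a start site in RefSeq (GRCm38.p6), were listed for 6 of the 10 genes, in 7 windows. Each was searched on both strands for CAGAC, the core element that Smad3 and Smad4 bind, for TGANTCA, the AP-1 element, for the E-box CACGTG and for TATAAA. The windows of Tgfbi and Tgfb2, which fell, and of Tgfbr2, which rose, are shown because they carry CAGAC in genes that moved in opposite directions. Capitals mark the motifs, and GTCTG is CAGAC on the other strand.
Tgfbi chr13:56609336-56609635, plus strand: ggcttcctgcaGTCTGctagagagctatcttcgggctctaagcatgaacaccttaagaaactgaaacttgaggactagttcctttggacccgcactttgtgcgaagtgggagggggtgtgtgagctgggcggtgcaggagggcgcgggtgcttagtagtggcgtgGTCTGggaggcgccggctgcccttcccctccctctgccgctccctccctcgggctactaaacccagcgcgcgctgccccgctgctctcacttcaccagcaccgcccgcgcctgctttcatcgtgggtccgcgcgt
Tgfb2 chr1:186705940-186706239, minus strand: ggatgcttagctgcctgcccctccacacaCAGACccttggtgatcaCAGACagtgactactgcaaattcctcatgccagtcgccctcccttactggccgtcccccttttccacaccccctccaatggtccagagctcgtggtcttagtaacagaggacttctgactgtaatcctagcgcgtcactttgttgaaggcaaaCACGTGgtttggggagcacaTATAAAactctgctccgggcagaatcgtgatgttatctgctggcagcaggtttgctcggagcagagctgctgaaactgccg
Tgfbr2 chr9:116175314-116175613, minus strand: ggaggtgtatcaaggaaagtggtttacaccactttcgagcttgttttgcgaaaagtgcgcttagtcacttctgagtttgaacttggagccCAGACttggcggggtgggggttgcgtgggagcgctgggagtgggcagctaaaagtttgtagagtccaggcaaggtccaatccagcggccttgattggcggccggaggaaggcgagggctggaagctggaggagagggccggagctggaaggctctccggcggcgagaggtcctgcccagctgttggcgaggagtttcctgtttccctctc
Tgfbi carried CAGAC at -239 and -85 from the start site, Tgfb2 at -221 and -204, and Tgfbr2 at -160. The Tgfb2 window also held CACGTG at -51 and TATAAA at -31, and no motifs overlapped in these 3 windows. The windows of Tgfb1 and Smad3 and the upstream window of Tgfbr1 held 0 of the 4 motifs, and the downstream window of Tgfbr1 held CAGAC at -203. Of 32851 windows of 300 bases in the same table, 49.6% held CAGAC, 7.15% CACGTG, 13.6% TATAAA and 7.81% TGANTCA, so a CAGAC in these windows is common. Skil, Tgfb3, Tgfbr3 and Smad7 are named without a promoter.

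In co-culture 5 of the 10 genes fell (Tgfbi, Skil, Tgfb2, Tgfbr1 and Smad3), Tgfbr2 rose, and Tgfb1, Tgfb3, Tgfbr3 and Smad7 did not pass the test. A gene was called at an adjusted p under 0.05 in edgeR's quasi-likelihood test with Benjamini-Hochberg adjustment over all genes tested. By that rule 20.6% of all genes tested were called, 10.3% lower in co-culture and 10.3% higher. Groups did not overlap for 8 of the 10 genes, against 42.9% of all genes tested. The median log2 fold change of the 10 genes was -0.36, against -0.04 over all genes tested. Because the genes were chosen with earlier results of these data known, these comparisons with all genes are a description and not a test. Without control library 4 the same rule called 7 of the 10 lower and 1 higher, beside 19.9% and 18.7% of all genes tested. With each of the other 5 libraries left out in turn, 2 genes (co-culture libraries 1 and 2 and control library 6) or 3 genes (co-culture library 3 and control library 5) were called lower and 0 higher. In these 5 fits the shares of all genes tested fell too, to 4.58% to 5.93% lower and 4.69% to 6.90% higher. With limma on log2(FPKM + 1) and log2(TPM + 1), Tgfb2 (adjusted p = 0.126 and 0.684), Tgfbr1 (0.106 and 0.776) and Smad3 (0.265 and 0.812) were not called, and Tgfbr2 was called on the FPKM scale (0.0477) but not on the TPM scale (0.233). Lower calls over all genes also fell on these scales, from 1330 to 651 and 236, while higher calls went from 1333 to 1489 and 512. Smad3 was also not called by DESeq2 (adjusted p = 0.0628). These are levels in bulk RNA, in which fewer cells of a type and less RNA per cell cannot be told apart.

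**Figure D1:**
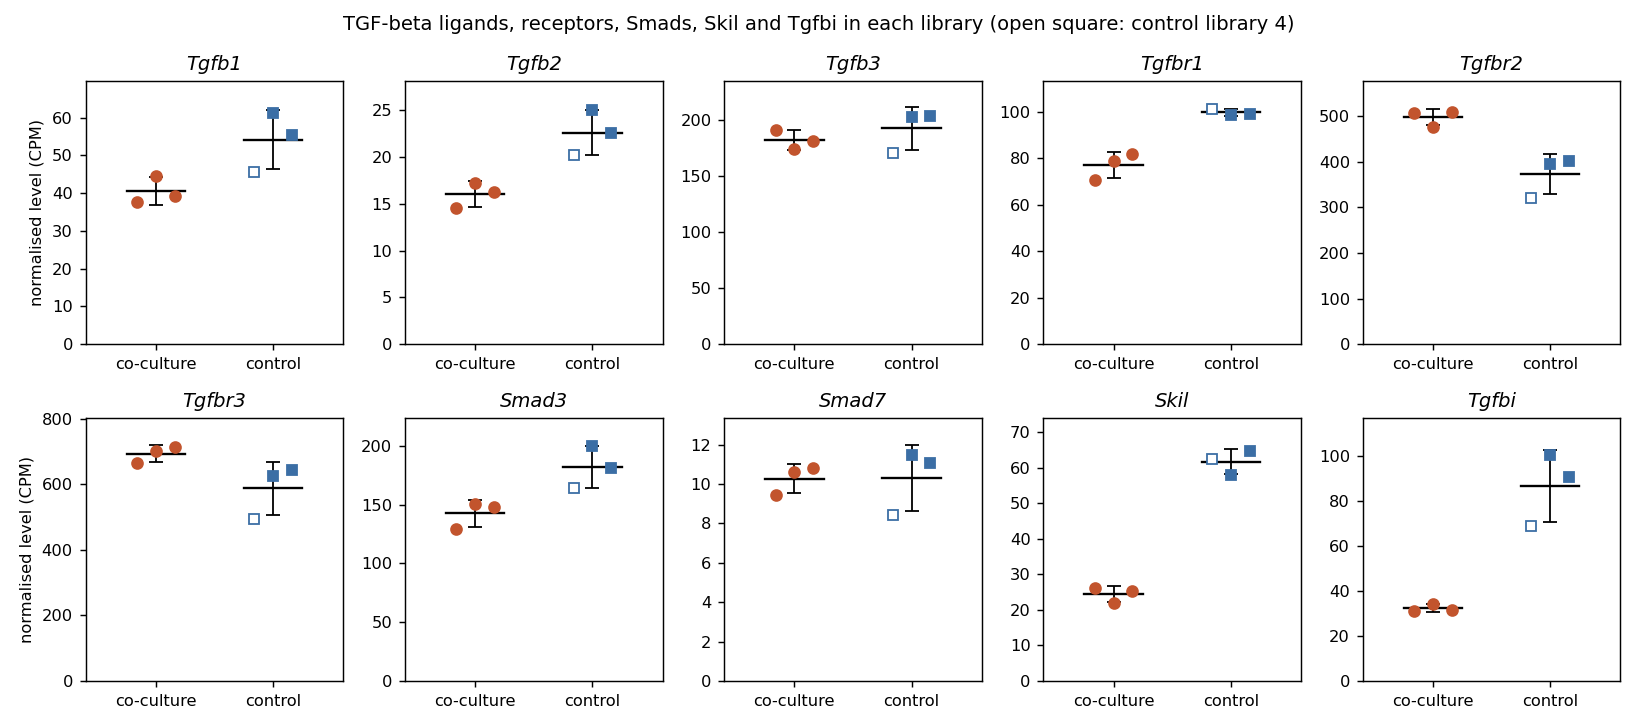
Normalised level (CPM, linear axes from 0) of the 10 genes in each library, with co-culture libraries as circles, control libraries as squares and control library 4 as an open square; horizontal lines are means and bars SD (n = 3 each). The 3 co-culture libraries lie far below the controls for Skil and Tgfbi, by smaller gaps for Tgfb1, Tgfb2, Tgfbr1 and Smad3, and above the controls for Tgfbr2 and Tgfbr3, while the groups overlap for Tgfb3 and Smad7.

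The change in Tgfbi was the largest of the 10. Tgfbi encodes a secreted, integrin-binding matrix protein named for its induction by TGF-beta (gene ID 21810, chr13:56609586-56639359 in GRCm38.p6). It was present at 30.9, 34.2 and 31.6 CPM in co-culture libraries 1, 2 and 3, against 68.8, 100.3 and 90.6 CPM in control libraries 4, 5 and 6. All 3 co-culture libraries lay close together and below the lowest control, which was control library 4. The log2 fold change was -1.42 ± 0.14 (SE; edgeR adjusted p = 0.00123), and it was -1.57 ± 0.07 without control library 4 (edgeR adjusted p = 6.01e-09). The call held under all 14 alternatives, with log2 fold changes from -1.57 to -1.19.

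Skil encodes SnoN, which binds Smad proteins on DNA and represses their targets, and is itself switched on by TGF-beta (gene ID 20482, chr3:31095058-31122923). It had 26.2, 22.1 and 25.2 CPM in co-culture libraries 1, 2 and 3, against 62.5, 58.0 and 64.7 CPM in control libraries 4, 5 and 6. Control library 4 lay between the other controls here, and every co-culture library had less than the lowest control by a wide gap. The log2 fold change was -1.33 ± 0.09 (edgeR adjusted p = 2.77e-04) with all libraries and -1.33 ± 0.08 without control library 4 (edgeR adjusted p = 1.35e-07). It ranged from -1.39 to -1.05 over the 14 alternatives, under all of which Skil was called lower.

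The ligands did not move as one. Tgfb2 (gene ID 21808, chr1:186622787-186709697), the isoform that depends most on betaglycan for receptor binding, was at 14.5, 17.3 and 16.3 CPM in co-culture libraries 1, 2 and 3, against 20.2, 25.1 and 22.6 CPM in control libraries 4, 5 and 6. The groups did not overlap, and the log2 fold change was -0.50 ± 0.11 (edgeR adjusted p = 0.0249), and -0.57 ± 0.09 without control library 4 (edgeR adjusted p = 5.04e-04). Leaving out co-culture libraries 1, 2 and 3 in turn gave edgeR adjusted p = 0.0934, 0.0583 and 0.0878. Leaving out control libraries 5 and 6 gave edgeR adjusted p = 0.0716 and 0.0827. The Tgfb2 call was thus lost without any 1 of these 5 libraries, while its log2 fold change stayed between -0.55 and -0.42. Calls over all genes also fell in these fits, from 2663 to between 1210 and 1664. Tgfb1 (gene ID 21803, chr7:25687002-25705077), the isoform most studied in airway remodelling, had 37.5, 44.6 and 39.3 CPM in co-culture libraries 1, 2 and 3, against 45.7, 61.3 and 55.5 CPM in control libraries 4, 5 and 6. The groups were separated by a narrow gap between co-culture library 2 and control library 4. Tgfb1 missed the threshold with all libraries (-0.42 ± 0.12, edgeR adjusted p = 0.0559) and passed it without control library 4 (-0.53 ± 0.08, edgeR adjusted p = 2.56e-04). Tgfb3 (gene ID 21809, chr12:86056743-86079041), which encodes the other isoform, was at 191, 174 and 181 CPM in co-culture libraries 1, 2 and 3, against 170, 203 and 204 CPM in control libraries 4, 5 and 6. Control library 4 was the lowest of all 6, and the groups overlapped. The log2 fold change was -0.08 ± 0.09 (edgeR adjusted p = 0.555), it turned to 0.03 on both FPKM scales and 0.11 on the TPM scale, and without control library 4 it was -0.16 ± 0.05 (edgeR adjusted p = 0.0359).

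Per length, Tgfb3 was the main ligand RNA. Of the TPM, a unit that corrects for library size and transcript length, summed over the 3 ligand genes, Tgfb3 made up 73.0%, 67.4% and 70.7% in co-culture libraries 1, 2 and 3, against 66.0%, 63.5% and 65.9% in control libraries 4, 5 and 6. The lowest co-culture share was above the highest control share, and the mean share was 5.22 percentage points higher (70.4% ± 2.82 in co-culture and 65.2% ± 1.42 in controls, SD, n = 3 each). An exact two-sided permutation test gave p = 0.1, the smallest that 3 against 3 libraries allow. Tgfb1 made up 23.5%, 28.4% and 25.2% in co-culture libraries 1, 2 and 3, against 29.0%, 31.5% and 29.4% in control libraries 4, 5 and 6 (exact permutation p = 0.1). Tgfb2 made up 3.95% ± 0.38 in co-culture and 4.88% ± 0.19 in controls, also without overlap (exact permutation p = 0.1). The order of the 3 ligands, Tgfb3 above Tgfb1 above Tgfb2, was the same in all 6 libraries. Summed ligand TPM was 154, 150 and 157 in co-culture libraries 1, 2 and 3, against 96.6, 194 and 192 in control libraries 4, 5 and 6 (exact permutation p = 1). Control library 4 was far below the other controls on this scale. Without it the Tgfb3 share was 5.66 percentage points higher in co-culture than in control, and those of Tgfb1 and Tgfb2 differed by -4.78 and -0.87 percentage points.

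Of the receptors, Tgfbr2 rose, Tgfbr1 fell and Tgfbr3 did not pass. Tgfbr2 (gene ID 21813, chr9:116087695-116175363), the ligand-binding type II receptor, had 506, 477 and 508 CPM in co-culture libraries 1, 2 and 3, against 321, 395 and 402 CPM in control libraries 4, 5 and 6. All co-culture libraries were above all controls, and control library 4 was the lowest. The log2 fold change was 0.41 ± 0.10 (edgeR adjusted p = 0.0342), a 1.33-fold rise. It was 0.32 ± 0.05 without control library 4 (edgeR adjusted p = 6.79e-04). Leaving out co-culture libraries 1, 2 and 3 in turn gave edgeR adjusted p = 0.118, 0.0885 and 0.124. Leaving out control libraries 5 and 6 gave edgeR adjusted p = 0.0664 and 0.0572. The Tgfbr2 call was thus also lost without any 1 of these libraries, while its log2 fold change stayed between 0.40 and 0.49. Tgfbr1 (gene ID 21812, chr4:47353222-47414926), the signal-transmitting type I receptor also called ALK5, had 70.7, 78.8 and 81.8 CPM in co-culture libraries 1, 2 and 3, against 101, 98.8 and 99.2 CPM in control libraries 4, 5 and 6. The controls were nearly equal, control library 4 included, and all exceeded the highest co-culture library. The log2 fold change was -0.37 ± 0.07 (edgeR adjusted p = 0.0140), and -0.36 ± 0.06 without control library 4 (edgeR adjusted p = 7.64e-04), whereas leaving out co-culture library 1, co-culture library 2 or control library 6 ended the call by a small margin (edgeR adjusted p = 0.0508, 0.0543 and 0.0534). Tgfbr3 (gene ID 21814, chr5:107106567-107289629), the co-receptor betaglycan, had 665, 703 and 713 CPM in co-culture libraries 1, 2 and 3, against 495, 624 and 644 CPM in control libraries 4, 5 and 6. The groups did not overlap, but control libraries 5 and 6 were close to co-culture library 1. Tgfbr3 did not pass with all libraries (0.24 ± 0.12, edgeR adjusted p = 0.194) or without control library 4 (0.13 ± 0.06, edgeR adjusted p = 0.0837).

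**Figure D2:**
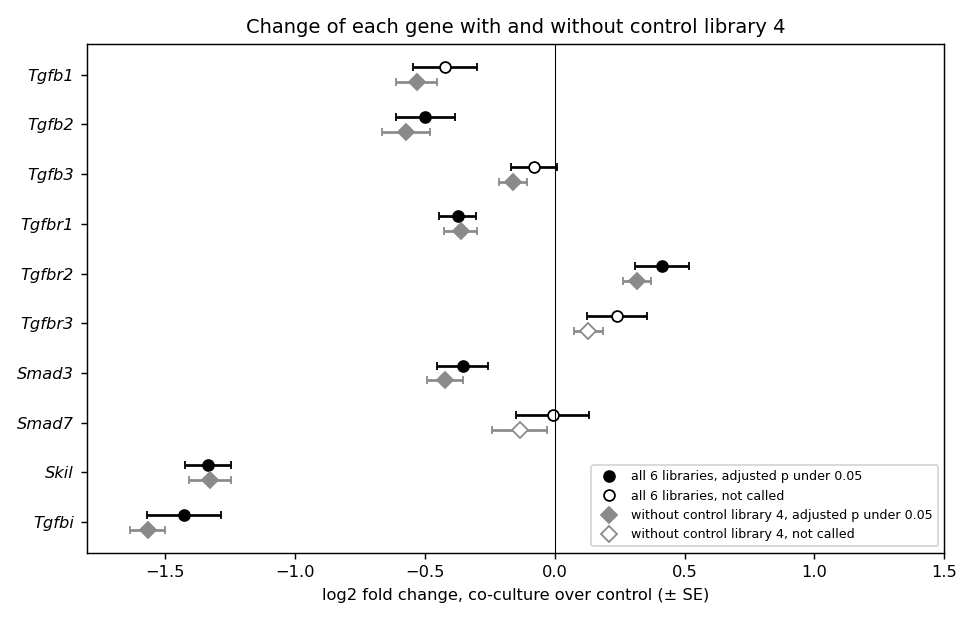
Log2 fold change (co-culture over control, ± SE) of the 10 genes with all 6 libraries (black circles) and without control library 4 (grey diamonds), filled where the edgeR adjusted p was under 0.05. Skil stays at -1.33 in both, Tgfbr2 is the only filled point right of 0, and Tgfb1 and Tgfb3 are filled only without control library 4.

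As a share of summed receptor TPM, Tgfbr1 made up 5.38%, 5.96% and 5.96% in co-culture libraries 1, 2 and 3, against 10.6%, 8.45% and 8.29% in control libraries 4, 5 and 6. Control library 4 was the highest, and every control was above every co-culture library. The difference was -3.34 percentage points, and -2.61 without control library 4. Tgfbr2 made up 47%, 44.0% and 45.2% in co-culture libraries 1, 2 and 3, against 40.9%, 41.3% and 41.1% in control libraries 4, 5 and 6. Its share was higher in each co-culture library than in any control. An exact two-sided permutation test gave p = 0.1 for Tgfbr1 and for Tgfbr2, the smallest it can give. Tgfbr3 made up 48.8% ± 1.20 in co-culture and 49.8% ± 1.13 in controls (exact permutation p = 0.4). Summed receptor TPM was 439.5, 437.7 and 479.5 in co-culture libraries 1, 2 and 3, against 204, 404.1 and 421.9 in control libraries 4, 5 and 6 (exact permutation p = 0.1). Without control library 4 the sum was 39.2 TPM higher in co-culture. The shares thus depend on this sum as well as on the level of each gene. Tgfbr3 was the most abundant receptor RNA per length and Tgfbr1 the least in all 6 libraries, with Tgfbr2 close to Tgfbr3 in the co-culture libraries. In co-culture library 1 the TPM of Tgfbr2 and Tgfbr3 were 207 and 209.

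The RNA of Tgfbr2 was split over the pair of transcripts shown above. NM_009371, with the extra exon, was at 294, 242 and 283 transcript CPM in co-culture libraries 1, 2 and 3, against 175, 172 and 188 CPM in control libraries 4, 5 and 6. Here control library 4 was level with the other controls, and the groups were far apart. Its log2 fold change was 0.62 ± 0.09 (edgeR adjusted p = 0.0432 over 33858 transcripts tested). Without control library 4 it was 0.60 ± 0.10 and no longer called (edgeR adjusted p = 0.0678). NM_029575, without the exon, was at 216, 237 and 227 transcript CPM in co-culture libraries 1, 2 and 3, against 146, 225 and 218 CPM in control libraries 4, 5 and 6. The groups overlapped, and control library 4 was far below the rest (0.21 ± 0.17, edgeR adjusted p = 0.723, and 0.03 ± 0.05, adjusted p = 0.897, without it). NM_009371 took 57.7%, 50.5% and 55.5% of the Tgfbr2 counts in co-culture libraries 1, 2 and 3, against 54.5%, 43.4% and 46.3% in control libraries 4, 5 and 6. A change of transcript use itself, tested with edgeR's diffSpliceDGE, was called for 0 of the 6 genes with more than 1 transcript tested (Tgfbr2 included, and 0 of 6 at an unadjusted p under 0.05), while 0.443% of all genes with several transcripts were called by this test. The test of transcript use is given here only with control library 4 included. That library, at 54.5%, lay within the co-culture range of the NM_009371 share, and the other controls lay below it.

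Of 22 transcripts of the 10 genes, 17 passed the filter on low counts, and 1 was higher and 2 were lower in co-culture. Over all transcripts tested 1.91% were called, 0.963% higher and 0.942% lower. The lower ones were NM_009369, the only Tgfbi transcript listed (-1.42 ± 0.15, edgeR adjusted p = 0.0160), and NM_001039090, the main Skil transcript (-1.28 ± 0.13, edgeR adjusted p = 0.0148). Without control library 4 those of Tgfbi (edgeR adjusted p = 0.00475) and Skil (0.0312) were called, beside 2.55% of all transcripts tested. Without any one of the other 5 libraries 0 transcripts of the 10 genes were called. The share of all transcripts called in those 5 fits is not given here. The loss of these calls therefore cannot be set against that over all transcripts. For Tgfbr1, NM_009370 had 39.4, 41.0 and 41.3 transcript CPM in co-culture libraries 1, 2 and 3, against 68.9, 50.8 and 53.6 CPM in control libraries 4, 5 and 6. Its groups did not overlap and it did not pass the test (-0.51 ± 0.13, edgeR adjusted p = 0.141), nor without control library 4 (-0.36 ± 0.06, edgeR adjusted p = 0.0545). The shorter NM_001312868, with 1497 coding bases against 1509, did not pass either (-0.06 ± 0.25, edgeR adjusted p = 0.966, and -0.29 ± 0.14, adjusted p = 0.418, without that library). Tgfb1, Tgfb3, Tgfbr3 and Tgfbi each had all their counts on a single transcript.

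**Figure D3:**
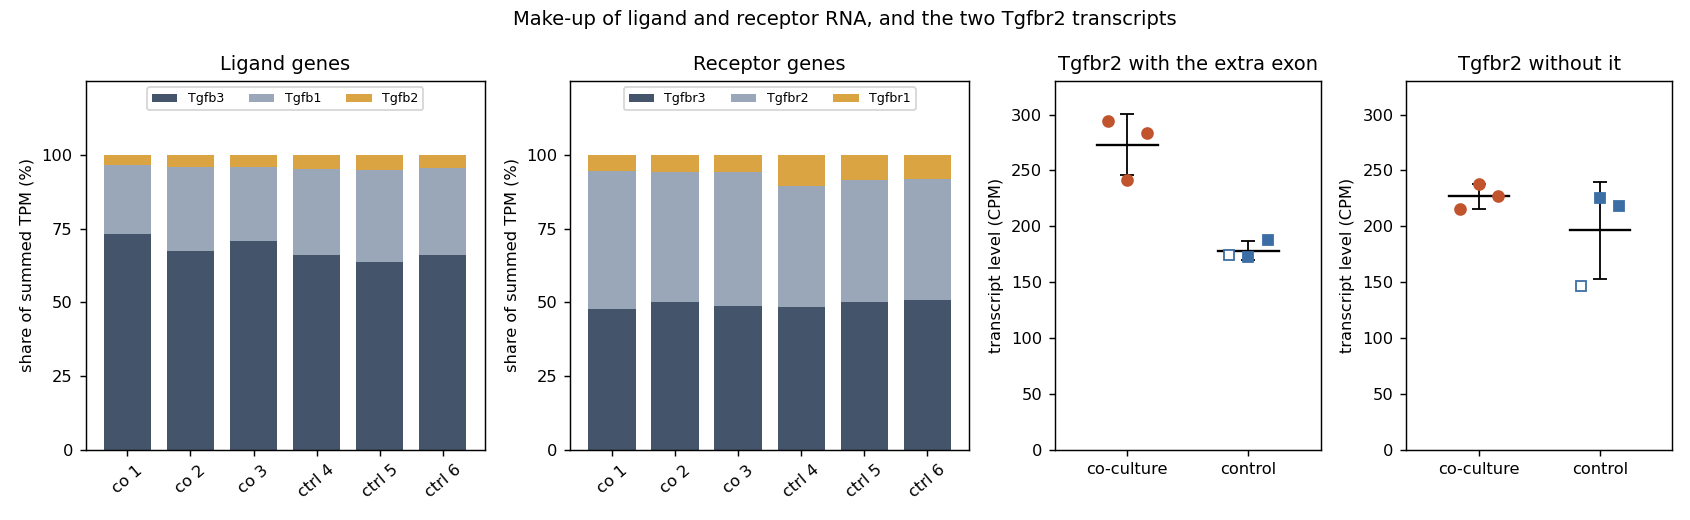
Left, share of each gene in the summed TPM (percent) of the ligand genes and of the receptor genes in co-culture libraries (co 1 to 3) and control libraries (ctrl 4 to 6). Right, CPM of the Tgfbr2 transcripts with and without the extra exon, with co-culture libraries as circles, controls as squares, control library 4 open, and mean and SD lines; the groups are apart for the transcript with the exon and overlap for the other.

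Among the Smads, Smad3 fell and Smad7 did not pass. Smad3 (gene ID 17127, chr9:63646766-63757994), the receptor-activated Smad that binds DNA, had 129, 150 and 148 CPM in co-culture libraries 1, 2 and 3, against 165, 200 and 182 CPM in control libraries 4, 5 and 6. The highest co-culture library was below control library 4, the lowest control. The log2 fold change was -0.35 ± 0.10 (edgeR adjusted p = 0.0464), close to the threshold, and -0.42 ± 0.07 without control library 4 (edgeR adjusted p = 4.79e-04). Leaving out co-culture libraries 1, 2 and 3 gave edgeR adjusted p = 0.154, 0.0982 and 0.119, leaving out control libraries 5 and 6 gave 0.120 and 0.134, and the adjusted p ran from 4.79e-04 to 0.812 over all alternatives. Smad7 (gene ID 17131), which blocks the type I receptor and recruits ubiquitin ligases to it, was low in every library. It had 9.42, 10.6 and 10.8 CPM in co-culture libraries 1, 2 and 3, against 8.40, 11.5 and 11.1 CPM in control libraries 4, 5 and 6. The groups overlapped, and the log2 fold change was -0.01 ± 0.14 (edgeR adjusted p = 0.975), with either sign over the alternatives and -0.13 ± 0.11 without control library 4 (edgeR adjusted p = 0.343). Of the 6 remaining Smads, 0 were called by edgeR, and 0 by DESeq2, by limma or without any one library, while 1, Smad1, had an unadjusted p under 0.05 in edgeR. Smad2, the other TGF-beta-activated Smad, was at 68.3 ± 2.21 CPM in co-cultured cells and 65.8 ± 1.08 CPM in control cells (log2 fold change 0.05, edgeR adjusted p = 0.534). Smad4, the common partner, was at 146.5 ± 1.40 CPM in co-cultured cells and 148 ± 10.1 CPM in control cells (-0.02, edgeR adjusted p = 0.885). The Smads of the BMP branch, Smad1, Smad5 and Smad9, had log2 fold changes of 0.19, 0.00 and 0.08, and Smad6, the other inhibitory Smad, 0.18 (edgeR adjusted p from 0.102 to 0.976 over these 4).

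Other genes of the pathway were taken from 6 lists that hold 86 genes, of which 85 were tested. The lists too were chosen with earlier results of these data known. In co-culture 9 of them were higher, 23 were lower and 53 did not pass (median log2 fold change -0.08), beside 10.3% of all genes tested in each direction. Counts over the lists were 13 higher and 38 lower without control library 4, and ran from 6 to 8 higher and from 15 to 17 lower without any one of the other 5 libraries. Of all genes tested, 18.7% were higher and 19.9% lower without control library 4, and 4.69% to 6.90% were higher and 4.58% to 5.93% lower without any one of the others. The genes of these lists named below with a call had the same direction and were called without control library 4. Of 17 tested genes of ligand latency and activation, 1 was higher, 6 were lower and 10 did not pass (median -0.26). Htra1, a secreted serine protease, had 62.5 ± 1.23 CPM in co-cultured cells and 170 ± 9.15 CPM in control cells (-1.44 ± 0.07, edgeR adjusted p = 7.8e-05). Itgb5, a partner of Itgav in an integrin that can free latent TGF-beta, had 171 ± 4.94 CPM in co-cultured cells and 316 ± 33.7 CPM in control cells (-0.89 ± 0.09, edgeR adjusted p = 0.00146). Thbs1, thrombospondin 1, another activator of latent TGF-beta, was at 1930 ± 169 CPM in co-cultured cells and 3372 ± 300.3 CPM in control cells (-0.80 ± 0.12, edgeR adjusted p = 0.00570). The 1 gene that rose was Fmod, fibromodulin, a proteoglycan that binds TGF-beta, with 4.79, 4.08 and 4.01 CPM in co-culture libraries 1, 2 and 3, against 0.371, 0.606 and 0.543 CPM in control libraries 4, 5 and 6 (3.06 ± 0.21, edgeR adjusted p = 2.82e-04). Each of these 4 calls held without any one library, and with limma on log2(TPM + 1) those of Itgb5 (adjusted p = 0.159) and Thbs1 (0.202) ended.

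Of 8 other receptors and co-receptors, 1 was higher, 1 was lower and 6 did not pass (median -0.14). For this list and the next ones, the share of all genes tested that was called was 10.3% in each direction. Cav1, the caveolar coat protein that binds the type I receptor, had 219 ± 2.82 CPM in co-cultured cells and 116 ± 10.2 CPM in control cells (0.92 ± 0.08, edgeR adjusted p = 6.73e-04). Fkbp1a, which holds the type I receptor inactive, had 217 ± 7.40 CPM in co-cultured cells and 295 ± 21.5 CPM in control cells (-0.44 ± 0.08, edgeR adjusted p = 0.00997), and leaving out co-culture library 2 or 3 ended its call (edgeR adjusted p = 0.0543 and 0.0574). Of 16 Smad cofactors and inhibitors, 1 was higher, 4 were lower and 11 did not pass (median -0.03). Pmepa1, a membrane protein that keeps Smad2 and Smad3 from the receptor and is a TGF-beta target like Skil, had 58.1 ± 3.90 CPM in co-cultured cells and 164 ± 15.4 CPM in control cells (-1.50 ± 0.09, edgeR adjusted p = 2.13e-04). The related Ldlrad4 had 58.9 ± 1.84 CPM in co-cultured cells and 102 ± 10.6 CPM in control cells (-0.79 ± 0.09, edgeR adjusted p = 0.00181), and the Smad corepressor Tgif1 fell by 0.43 on the log2 scale (edgeR adjusted p = 0.00320). Pias1, a SUMO ligase, rose by 0.29 ± 0.08 (edgeR adjusted p = 0.0414), a call that ended in edgeR when co-culture libraries 1, 2 and 3 (edgeR adjusted p = 0.101, 0.125 and 0.147) and control library 5 (0.117) were left out in turn. Of 7 non-Smad kinases and adaptors, such as Map3k7 (TAK1), 0 were called by edgeR, DESeq2 or limma, 0 had an unadjusted p under 0.05 in edgeR, and the median was 0.03. With limma on log2(FPKM + 1) and log2(TPM + 1) Fkbp1a (adjusted p = 0.0725 and 0.636) and Tgif1 (0.0519 and 0.688) were not called, nor were Ldlrad4 (0.306) and Pias1 (0.391) on the TPM scale or Pias1 with DESeq2 (0.0778).

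**Figure D4:**
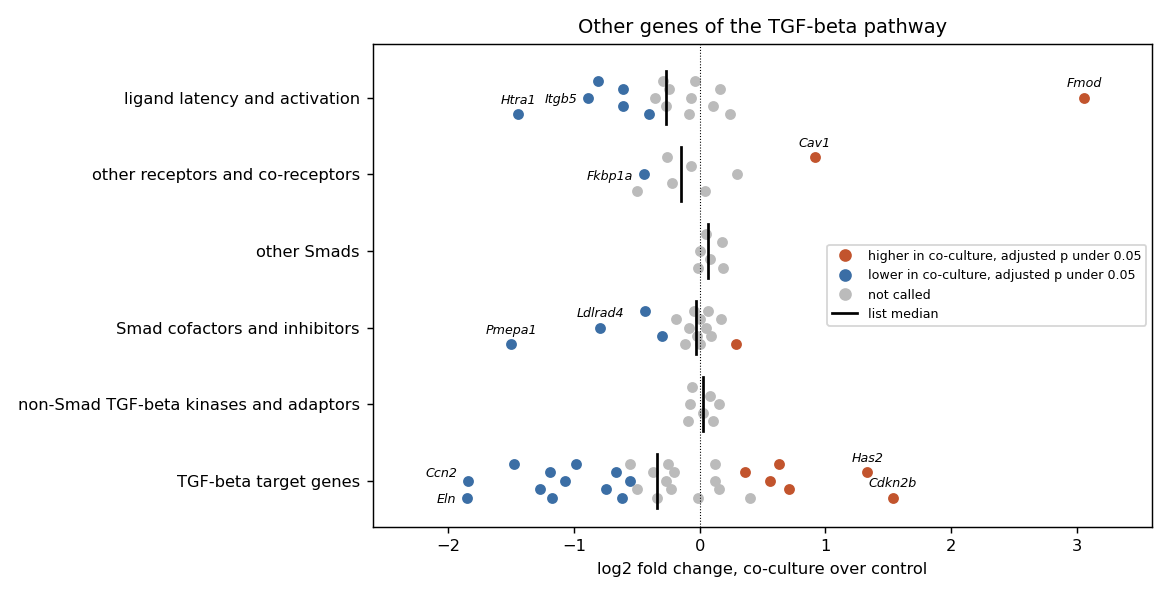
Log2 fold change (co-culture over control) of each tested gene in 6 lists of other TGF-beta pathway genes, with 1 point a gene, orange where called higher, blue where called lower and grey where not called; vertical bars are list medians and vertical offsets within a list only separate points. The called genes lie in the target, latency, receptor and cofactor lists, with Eln at -1.85 and Fmod at 3.06 as the extremes, while the other Smads and the non-Smad kinases lie close to 0.

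Of 31 target genes of TGF-beta, 6 were higher, 12 were lower and 13 did not pass (median -0.34). The list was not split by whether TGF-beta raises or lowers a gene, so its counts and median do not stand for a single direction of regulation. Without control library 4, 8 were higher and 18 lower, and 4 or 5 were higher and 8 or 9 lower without any one of the other libraries, beside the shares of all genes given above (18.7% higher and 19.9% lower without control library 4). Eln, elastin, had 87.9 ± 7.58 CPM in co-cultured cells and 317 ± 36.7 CPM in control cells (-1.85 ± 0.11, edgeR adjusted p = 2.07e-04), and Ccn2, connective tissue growth factor, 136 ± 15.6 CPM in co-cultured cells and 485 ± 10.1 CPM in control cells (-1.84 ± 0.10, edgeR adjusted p = 1.45e-04). Tagln, the actin-binding protein transgelin, had 17.3, 9.16 and 12.7 CPM in co-culture libraries 1, 2 and 3, against 45.5, 31.4 and 32.5 CPM in control libraries 4, 5 and 6 (-1.48 ± 0.25, edgeR adjusted p = 0.00900). The groups did not overlap for any of these 3 genes. Targets that rose included Cdkn2b, the cell cycle inhibitor p15, with 185 ± 24.1 CPM in co-cultured cells and 63.8 ± 4.88 CPM in control cells (1.54 ± 0.11, edgeR adjusted p = 3.69e-04). Has2, a hyaluronan synthase, had 8.80 ± 2.02 CPM in co-cultured cells and 3.49 ± 0.21 CPM in control cells (1.33 ± 0.19, edgeR adjusted p = 0.00438), and Snai2, the transcription factor Slug, 59.1 ± 2.33 CPM in co-cultured cells and 36.0 ± 2.25 CPM in control cells (0.71 ± 0.07, edgeR adjusted p = 0.00140). These 6 calls held without any one library. Acta2, Tagln and Cnn1 are on both the target and the smooth muscle marker list. Of the 9 tested smooth muscle markers, 3 were lower (these 3) and 1 was higher. The higher one was Myocd, the coactivator myocardin, with 16, 14 and 15 counts in co-culture libraries 1, 2 and 3, against 2 counts in each control library (edgeR adjusted p = 0.00200). Lmod1 and Synpo2, with log2 fold changes of 0.33 and 0.36, did not pass the test (edgeR adjusted p = 0.131 and 0.0966). The whole list summed to 222 to 252 CPM in co-cultured cells and 341 to 342 CPM in control cells.

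Markers of other cell types were measured beside these changes, and 10.3% of all genes tested were called in each direction. Leukocyte markers summed to 65.1 to 71.6 CPM in co-cultured cells and 84.8 to 139 CPM in control cells, with 1 of 9 tested lower. Epithelial markers summed to 11.7 to 13.2 CPM in co-cultured cells and 20.1 to 28.2 CPM in control cells, and of 3 tested Krt18 was lower while Trp63 and Muc1 were higher. Endothelial markers summed to 9.21 to 9.84 CPM in co-cultured cells and 8.77 to 10.4 CPM in control cells, with 0 of 3 tested called by edgeR, 0 at an unadjusted p under 0.05, and 1 with no filter on low counts. Of the 9 fibroblast markers tested, 2 were higher and 1 was lower, and mesothelial markers summed to at most 1.67 CPM in co-cultured cells and 2.22 CPM in control cells. Col1a1 and Col3a1 are on both the fibroblast marker list and the target list. The deposited table held 15 of 16 epithelial, 11 of 12 leukocyte, 9 of 10 endothelial and 3 of 6 mesothelial markers listed. Of the markers in the table, 0 were at 0 in every library, which says nothing of those absent from it. The part of these cell types in the changes of the TGF-beta genes was not tested.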

How the data were processed

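RNA of 3 co-culture and 3 control samples was sequenced, and HISAT aligned the reads, per the labels' protocols. The submitters' processing notes name the build mm10. What counted the reads, with which annotation, kit, strand setting and versions, is not given in the sources used here, so reads of an antisense partner cannot be told apart. The authors deposited estimated counts, FPKM and TPM per gene (17023) and transcript (58236), per the file headers. Columns number the controls 4 to 6 and the labels number them from 1, so controls enter as a group and are named by column. Control FPKM and TPM columns and others, 15 in all, were not used. FPKM and TPM were recomputed from counts, with gene lengths taken from the ratio of deposited co-culture counts to FPKM, and differed from deposited co-culture values by medians of 0.00338 and 0.0107 (log2).

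Estimated counts were rounded and tested with edgeR 4.0.16 in R 4.3.3 (filterByExpr, TMM factors, quasi-likelihood test of co-culture over control with no covariate, two-sided, Benjamini-Hochberg adjustment over all genes or transcripts tested, calls at an adjusted p under 0.05). The SE was derived from the fold change and the F statistic. CPM use TMM-scaled library sizes. Transcript use was tested with diffSpliceDGE. Alternatives were DESeq2 1.42.0, its size factors in edgeR, no filter, unrounded counts, limma 3.58.1 voom with quality weights, limma on log2(FPKM + 1), log2(FPKM + 0.1) and log2(TPM + 1), and each library left out. On simulated data with known changes between 3 and 3 libraries, edgeR called 11.9%, 74.6% and 95.5% of genes changed 1.5-, 2- and 4-fold. These were 67, 67 and 66 of 12936 genes, and all libraries were drawn from common means. Gene IDs were matched to a RefSeq table of GRCm38.p6 (16975 found), and transcript exons to GENCODE M21. Estimated transcript counts divide reads among overlapping transcripts and are less certain than gene counts. The genes described and the lists were chosen with earlier results of these data known. From each list the called genes with the largest changes were named, up to 3 in each direction (1 further gene first put on the target list is neither reported nor counted here), with every gene of the list of other Smads, and for Tgfbi, the gene of the largest change, the 3 genes with the most similar levels.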

Additional observations from a re-analysis of the deposited data

How the results depend on the processing

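Tgfbi and Skil were called lower under all 14 alternatives, and Tgfbr3 and Smad7 were called under 0 of them. Genes of the 10 called lower, 5 with all libraries, numbered 2 on both FPKM scales and on the TPM scale, and 2 to 7 with a library left out. Lower calls over all genes fell on these scales too. They were 1330 of 12936 genes in the main fit. Of 12924 genes they were 651 and 653 on the FPKM scales (pseudocounts 1 and 0.1) and 236 on the TPM scale. Higher calls over all genes were 1333 in the main fit, and 1489, 1454 and 512 on these scales. Genes called higher numbered 0 on the TPM scale and 0 to 1 with a library left out. Smad7 changed sign, with log2 fold changes of 0.0034 with DESeq2's size factors, 0.0017 with DESeq2, 0.0752 and 0.107 on the FPKM scales (pseudocounts 1 and 0.1), 0.145 on the TPM scale, and values from -0.13 to 0.0726 with a library left out (0.0516 without co-culture library 1, 0.0726 and 0.0674 without control libraries 5 and 6). Tgfb3 changed sign on the same FPKM scales (0.0299 and 0.0306) and the TPM scale (0.114). On the TPM scale the median of all genes was 0.137, so the Smad7 and Tgfb3 values lie near that shift. The cause of these moves was not tested. Calls over all genes, 2663, were 4689 with quality weights, 748 on the TPM scale and 1210 to 5043 with a library left out. Of all calls 50.1% were higher, against 69.6%, 69.0% and 68.4% on the FPKM + 1, FPKM + 0.1 and TPM scales. Pathway genes called lower, 23, were 37 with quality weights, 15 on both FPKM scales, 8 on the TPM scale and 15 to 38 with a library left out, and those called higher, 9, were 5 on the TPM scale and 6 to 13 with a library left out. Transcripts called, 3, were 2 with no filter and 0 to 2 with a library left out. Of the fits with a library left out, only that without control library 4 has the share of all transcripts given here. The difference in the Tgfb3 share of ligand TPM ranged from 3.91 to 6.72 and that in the Tgfbr1 share of receptor TPM from -3.75 to -2.61 percentage points with a library left out, alternatives chosen after seeing the data. No paired analysis was possible because the control columns carry the numbers 4 to 6 and share none with the co-culture columns. In the simulation, which had far fewer changed genes than were called here and no library that stood apart, edgeR called 11.9% of 1.5-fold changes. That share is therefore not the power in these data. By log2 fold change 8 of the 10 genes changed by less than 1.5-fold, and Tgfb2, Tgfbr1, Tgfbr2 and Smad3 among them were called.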

Other observations

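The genes whose levels over the 6 libraries were most like those of Tgfbi, by the root mean square difference of centred log2 CPM, were Ephb2 (0.101), Pde4d (0.108) and Col4a1 (0.111). Ephb2, an ephrin receptor, had 49.4 ± 3.34 CPM in co-cultured cells and 125.5 ± 12.0 CPM in control cells, a log2 fold change of -1.34 (edgeR adjusted p = 3.15e-04). Pde4d, a cAMP phosphodiesterase, had 8.68 ± 0.30 CPM in co-cultured cells and 20.8 ± 2.34 CPM in control cells (-1.26, edgeR adjusted p = 7.23e-04). Col4a1, a chain of basement membrane collagen, had 1048 ± 45.9 CPM in co-cultured cells and 2566 ± 317 CPM in control cells (-1.29, edgeR adjusted p = 9.41e-04). These 3 genes were picked for their likeness to Tgfbi over the same 6 libraries, so their fold changes and adjusted p-values are a description. The list of target genes also held Nox4, an oxidase that makes hydrogen peroxide, with 50.6 ± 1.44 CPM in co-cultured cells and 122 ± 12.5 CPM in control cells, Adam12, a metalloprotease, with 100.2 ± 6.26 CPM in co-cultured cells and 228 ± 21.9 CPM in control cells, and Myc, with 35.8 ± 0.91 CPM in co-cultured cells and 23.1 ± 0.46 CPM in control cells. These 3 passed the test (edgeR adjusted p = 2.89e-04, 4.93e-04 and 0.00155) and are named here in addition, after their values were seen.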
